A study of Homo sapiens with 4 samples.

Results

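Nontypeable Haemophilus influenzae (NTHi) is a bacterium that colonizes the airways, and these data compare how a pair of human monocytic sublines stood after 6 h with it. THP-1 is an established cell line from a human monocytic leukemia. Its sublines Siglec-14/THP-1 and, for the other receptor, Siglec-5/THP-1 each express the Siglec they are named for, and were made as models of monocytes from people with and without a working SIGLEC14 gene. Cells of each line were kept for 6 h in serum-free macrophage medium, either alone or with heat-killed NTHi strain 2019 at 100 bacteria per cell. From each culture 250 ng of RNA went onto its own array (Affymetrix U133 Plus 2.0), 4 in all. The arrays are called Siglec-14,NTHi[−], Siglec-14,NTHi[+], Siglec-5,NTHi[−] and Siglec-5,NTHi[+]. The comparison described here is Siglec-14,NTHi[+] against Siglec-5,NTHi[+], the pair in which both lines had met the bacteria.

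Siglecs are lectins of leukocytes that bind sialic acid on the surface of cells and of some bacteria. Siglec-5 carries inhibitory motifs in its cytoplasmic tail that recruit the phosphatases SHP-1 and SHP-2. Siglec-14 has a nearly identical ligand-binding part, but pairs with the activating adaptor DAP12, so that the same ligand can reach opposite signals in a monocyte.

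The values were signal intensities in arbitrary units on a linear scale, 1 for each probe set, a group of short probes for one transcript. A gene with several probe sets entered with its brightest one by mean signal over the 4 arrays. A gene was compared when its higher signal of the pair reached 105.05, the 75th percentile of all signals, and 8133 of 19775 genes, or 41.1%, did so. A ratio below is the signal of Siglec-14,NTHi[+] divided by that of Siglec-5,NTHi[+], and a log2 ratio above 0 means a higher signal in Siglec-14/THP-1. With 1 array per condition the ratios have no replicate error and no test, and each describes a pair of cultures of 1 subline each. The Siglec, the subline and the array of a condition cannot be told apart. Where the lower signal lay under the median of all signals, 16.02, the fold was computed against that median and is written as a lower bound, "at least". This applied to 22 genes, all of them higher in Siglec-14/THP-1.

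The arrays could not check the lines' labels through the Siglecs themselves. A probe set for SIGLEC14 alone was not analysed here. The probe set of SIGLEC5 had signals of 21.3 and 19.5 in Siglec-14,NTHi[−] and Siglec-14,NTHi[+], and of 4.13 and 21.6 in Siglec-5,NTHi[−] and Siglec-5,NTHi[+]. All of these lay near or under the median of all signals, and the sources used here do not give where its probes fall relative to the expressed construct. Of 12 monocyte and myeloid marker genes, 5 reached the 75th percentile on at least 1 of the compared arrays. They include LYZ, which encodes lysozyme, at 3036 in Siglec-14,NTHi[+] and 3180 in Siglec-5,NTHi[+], and PTPRC, the leukocyte antigen CD45, at 2365 and 1770. CD14, the co-receptor for bacterial endotoxin that defines classical monocytes, lay under the median on all arrays, at 11.4, 2.04, 0.808 and 1.97. None of the 8 T cell markers or 6 erythroid and platelet markers was among the genes compared. Nor was any of the 5 B cell markers. Their summed signals ranged from 57.0 to 93.7 for T cells, 112 to 125 for erythroid cells and platelets, and 125 to 160 for B cells, over the 4 arrays.

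The ratios leaned towards Siglec-14/THP-1. Of the 8133 genes, 280 had at least a 2-fold higher signal in Siglec-14,NTHi[+], which is 3.44%, and 35 had at least a 2-fold lower one, which is 0.43%. At 3-fold the counts were 132 (1.62%) and 1 (0.0123%), and the single gene was BMP8B, which encodes a bone morphogenetic protein. At least an 8-fold higher signal was found for 44 genes, while no gene was 4-fold lower. The middle of the distribution was close to equality, with a median log2 ratio of 0.04 and quartiles of -0.14 and 0.24. The sums of all signals were 1.398e+07 in Siglec-14,NTHi[+] and 1.343e+07 in Siglec-5,NTHi[+], and scaling the arrays to the same median moved the median log2 ratio to -0.07. That scaling gave 231 genes higher and 59 lower at 2-fold, so the lean held while its proportions changed. Just inside and outside the 2-fold line lay SQSTM1 with a ratio of 2.00 and WIPF3 with 1.99, and on the other side SERPINB10 was 2.01-fold lower and NOPCHAP1 1.99-fold lower. Just inside the signal threshold was ZBTB46 with 105.1 and 38.3, and just outside it RBBP9 with 104.7 and 72.8, each in Siglec-14,NTHi[+] and Siglec-5,NTHi[+].

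**Figure D1:**
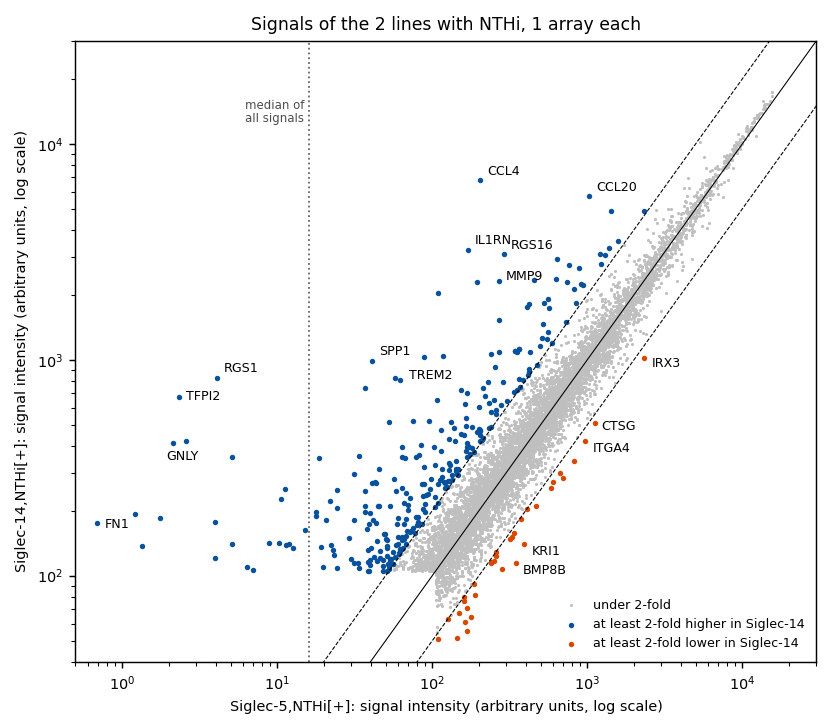
Each point is a gene, with its signal in Siglec-5,NTHi[+] on the x axis and in Siglec-14,NTHi[+] on the y axis, both in arbitrary units on log scales, 1 array each. The solid line marks equal signals, the dashed lines 2-fold differences and the dotted line the median of all signals, 16.02. Blue points (higher in Siglec-14/THP-1) outnumber orange points (lower) and lie much farther from equality, with CCL4 at 6775 against 203 and RGS1 at 825 against 4.06.

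Other probe sets for the same genes show the scatter between probe sets read on the same arrays from the same RNA. Error between arrays or between cultures is not part of it. For 2765 genes with 2 or more probe sets that reached the threshold on both arrays, the log2 ratios of a gene spanned a median of 0.16, and 90% of the genes spanned less than 0.42. Probe sets under the threshold on either array are not in these spans. For the genes past 2-fold, a further probe set was counted when its higher signal of the pair reached the threshold. Such a probe set can enter through the line where the gene is high, which favors the same direction. Of the 280 higher genes, 86 had 116 such probe sets, of which 96 were also at least 2-fold higher and all 116 were above 1. Of the 35 lower genes only 6 had such probe sets, 8 in number. All 8 were below 1 and 2 were at least 2-fold lower. Dim genes gave most of the calls, with 208 higher and 27 lower among the 4067 dimmest of the 8133 genes by mean signal against 72 and 8 among the 4067 brightest.

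Among the 15 genes with the largest measured ratios, several encode secreted proteins of activated macrophages. CCL4, which encodes a chemokine of monocytes and lymphocytes, had 6775 in Siglec-14,NTHi[+] and 203 in Siglec-5,NTHi[+], a log2 ratio of 5.06. SPP1, which encodes the matrix cytokine osteopontin, had 991 and 41.0, or 24.2-fold. IL1RN, the receptor antagonist that blocks interleukin-1, had 3236 and 170, or 19.1-fold. The lines were also apart without NTHi, with 4355 against 36.1 for CCL4, 1043 against 52.7 for SPP1 and 2495 against 124 for IL1RN. TNFSF15, a cytokine of the TNF family known as TL1A, had 189 and 17.8, or 10.6-fold.

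The same 15 genes hold receptors and enzymes of the cell surface. TREM2, a lipid-sensing receptor that like Siglec-14 signals through DAP12, had 803 in Siglec-14,NTHi[+] and 61.8 in Siglec-5,NTHi[+], or 12.98-fold. CD86, the costimulatory ligand that T cells read through CD28, had 196 and 17.7, or 11.1-fold. NT5E, which encodes the ectonucleotidase CD73 that makes adenosine, had 1025 and 88.9, or 11.5-fold. Each of the 3 was also well separated without NTHi, at 915 and 81.5 for TREM2, 218 and 37.6 for CD86, and 916 and 123 for NT5E.

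Regulators of G-protein signaling and of transcription made up much of the remainder. RGS2 and RGS16 encode proteins that shorten G-protein signals. RGS2 had 2291 in Siglec-14,NTHi[+] and 194 in Siglec-5,NTHi[+], and RGS16 had 3085 and 290, with ratios of 11.8 and 10.6. IER3, an immediate early gene tied to survival and stress, had 2029 and 108, or 18.7-fold. BCL6, a transcriptional repressor, had 249 and 24.3, or 10.2-fold. PHLDA1 (738 and 36.8), PNOC (352 and 18.6), which encodes the precursor of the neuropeptide nociceptin, COXFA4L3 (821 and 57.2) and COL6A1 (359 and 33.6), a chain of collagen VI, complete the 15. BCL6 had the smallest ratio of the 15, so all 15 were over 10-fold.

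**Figure D2:**
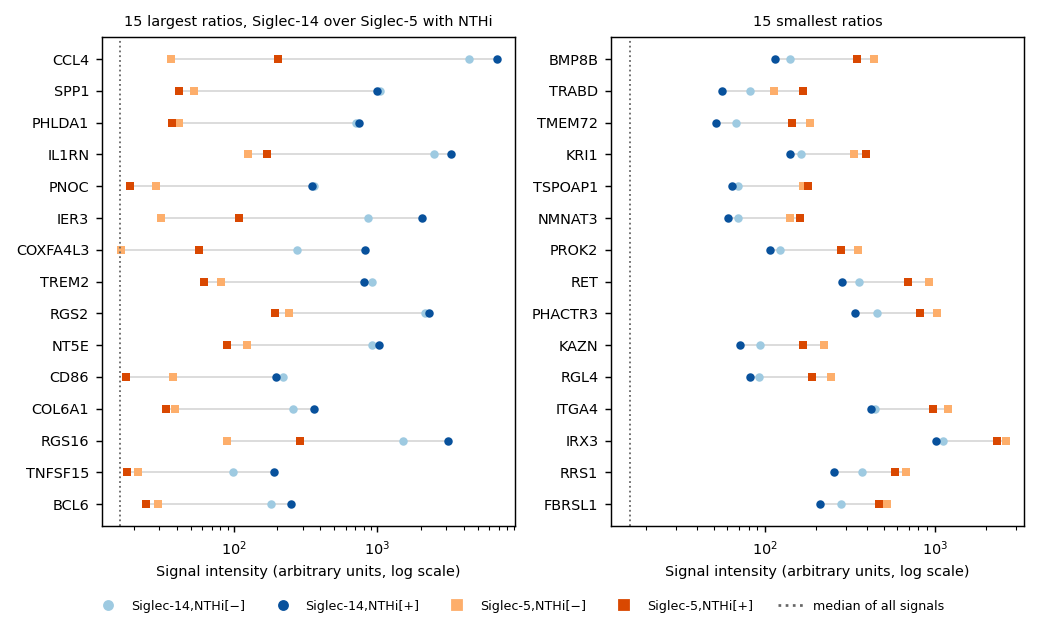
Signals on all 4 arrays, in arbitrary units on a log scale, for the 15 genes with the largest and the 15 with the smallest measured ratio of Siglec-14,NTHi[+] to Siglec-5,NTHi[+]; circles are Siglec-14/THP-1, squares Siglec-5/THP-1, and dark symbols had NTHi. For every gene shown both circles lie on the same side of both squares, so the lines were also apart without NTHi, and the gaps on the left, up to 6775 against 203, are wider than those on the right, where BMP8B has the largest ratio at 346 against 114.

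A further 22 genes were bright in Siglec-14/THP-1 and under the median in Siglec-5/THP-1, so that only a bound can be given. RGS1, another regulator of G-protein signaling, had 825 in Siglec-14,NTHi[+] and 4.06 in Siglec-5,NTHi[+], at least 51.5-fold higher. TFPI2, an inhibitor of serine proteases in the matrix, had 675 and 2.32, at least 42.1-fold. CCL22, a chemokine for regulatory and type 2 helper T cells, had 421 and 2.58, at least 26.3-fold. EMP1, a membrane protein of epithelial and other cells, had 354 and 5.08, at least 22.1-fold. On the Siglec-5/THP-1 arrays the highest signal of these 4 was 16.1, for EMP1 without NTHi.

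GNLY encodes granulysin, an antimicrobial protein of natural killer and T cells, and was the only one of 6 natural killer markers among the genes compared. Its signal was 410 in Siglec-14,NTHi[+] and 2.14 in Siglec-5,NTHi[+], at least 25.6-fold higher, and a second probe set gave 321 and 3.03. The other natural killer markers stayed low, with signals on the probe set used of 40.2 and 42.9 for KLRF1, 26.3 and 29.7 for PRF1, 29.0 and 26.4 for NCAM1, 6.11 and 7.99 for KLRD1 and 11.7 and 1.93 for NCR1. All of these lay far under the threshold on both arrays. In RNA from whole cultures, fewer cells that express a gene and less of its RNA per cell cannot be told apart. Among the epithelial and fibroblast markers, COL1A1 alone was compared, with 257 and 132, a ratio of 1.95.

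Of the 35 genes lower in Siglec-14/THP-1, the differences were small beside those in the other direction. BMP8B had 114 in Siglec-14,NTHi[+] and 346 in Siglec-5,NTHi[+], 3.03-fold lower. PROK2, which encodes prokineticin-2, a secreted peptide of myeloid cells, had 108 and 282, or 2.62-fold lower. RET, a receptor tyrosine kinase, had 284 and 693, or 2.44-fold lower. ITGA4, the α4 integrin chain that binds VCAM1 and fibronectin, had 419 and 969, or 2.31-fold lower. FN1, the fibronectin that α4 integrin binds, went the other way, with 176 and 0.690, at least 10.97-fold higher.

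Further genes among the 35 have roles in transcription, the cell cycle, granules and ribosome assembly. IRX3, a homeobox factor found in acute leukemias, had 1015 in Siglec-14,NTHi[+] and 2324 in Siglec-5,NTHi[+], 2.29-fold lower. CCND2, cyclin D2 of the G1 phase, had 272 and 600, or 2.21-fold lower. CTSG, the granule protease cathepsin G, had 508 and 1112, or 2.19-fold lower. CCND2 and CTSG were the only genes of the cell cycle and primary granule lists, of 24 and 10 genes compared, that were 2-fold lower. RRS1 and KRI1, both needed to assemble ribosomes, had 255 and 584, and 140 and 392. The remaining genes among the 15 smallest ratios were TRABD, TMEM72, TSPOAP1, NMNAT3, PHACTR3, KAZN, RGL4 and FBRSL1, between 2.24-fold and 2.99-fold lower. With the median over the probe sets of a gene in place of the brightest, KRI1, RET and KAZN were lower by less than 2-fold, at log2 ratios of -0.92, -0.88 and -0.85.

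Of 45 gene lists, 40 had at least 3 genes in the comparison, and each is described by its counts and its median log2 ratio. These are to be read beside the median of 0.04 and the shares of 3.44% and 0.43% over all genes compared. Of all 8133 genes, 4604, or 56.6%, were above 1. No list had more genes lower than higher at 2-fold except the primary granule proteins and the cell cycle genes, with 1 lower and 0 higher each. The highest medians belonged to chemokines, cytokines, matrix genes and early response genes.

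**Figure D3:**
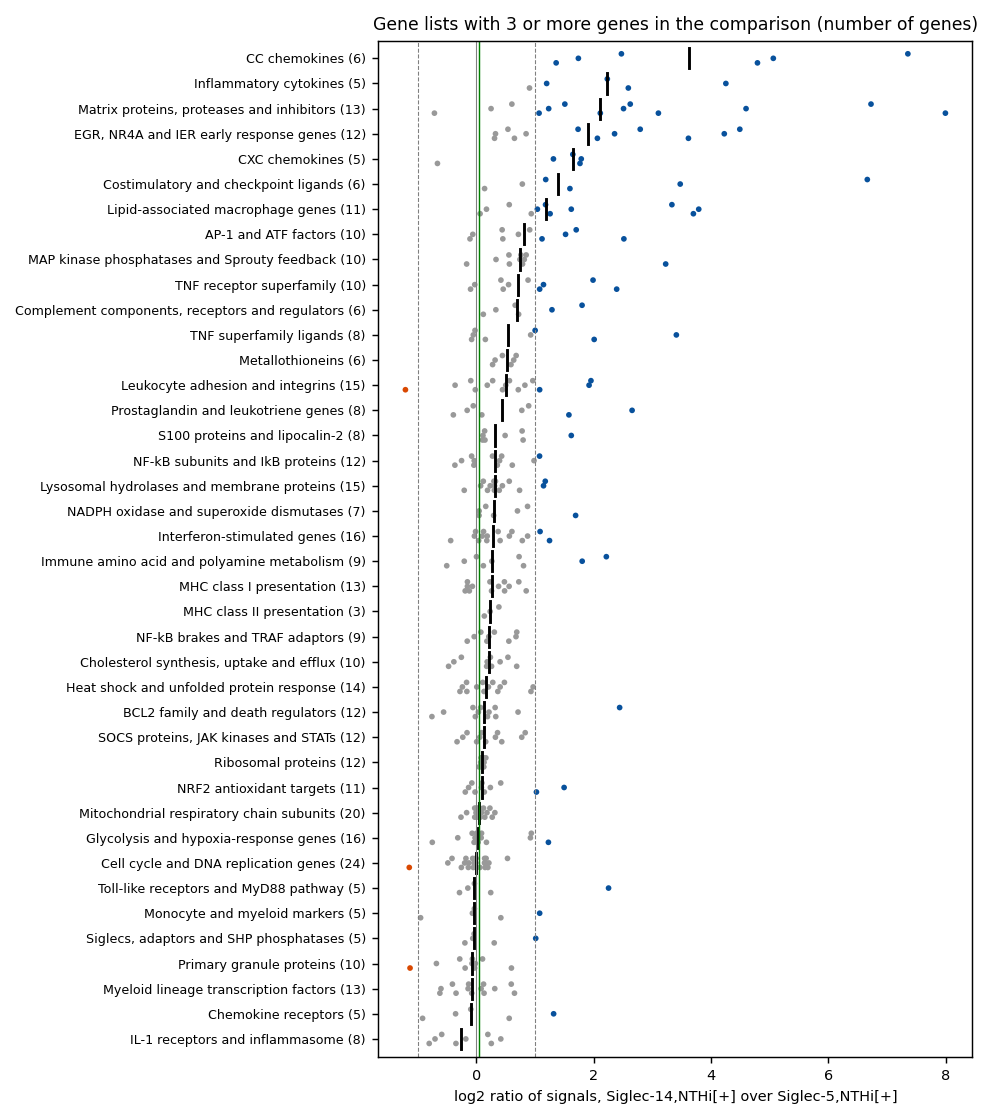
Log2 ratio of Siglec-14,NTHi[+] to Siglec-5,NTHi[+] for each gene (points) of the 40 lists with 3 or more genes compared, 1 list per row, with the list's median as a black bar and the number of genes in brackets. Blue points are at least 2-fold higher and orange points at least 2-fold lower; dashed lines mark 2-fold and the green line the median over all genes, 0.04. Medians run from -0.26 for interleukin-1 receptors and the inflammasome to 3.63 for CC chemokines, and ribosomal, respiratory chain and cell cycle genes cluster around the green line.

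Chemokines, the attractants of leukocytes, were higher in Siglec-14/THP-1 with 1 exception. All 6 CC chemokine genes compared were at least 2-fold higher, with a median log2 ratio of 3.63, or 2.80 with CCL22 and CCL24 at their bounds. CCL24, an attractant of eosinophils, had 141 in Siglec-14,NTHi[+] and 5.09 in Siglec-5,NTHi[+], at least 8.79-fold, and CCL5, an attractant of T cells and monocytes, had 3078 and 1199, or 2.57-fold. The probes of CCL4 may also read its near-identical copy, so its value is uncertain as to the gene. Of 5 CXC chemokine genes, 4 were at least 2-fold higher, all of them attractants of neutrophils. CXCL2 had 131 and 38.6, or 3.40-fold, and CXCL6 had 150 and 60.5, or 2.49-fold. CXCL10, the interferon-inducible attractant of T cells, had 2035 and 3220 and was the exception, at 1.58-fold lower. Of 5 chemokine receptors CCR1, which binds CCL5, had 325 and 130, or 2.49-fold higher, while CXCR4, the receptor that keeps cells in the marrow, had 268 and 505, a log2 ratio of -0.92 that passed 2-fold only with the arrays scaled to the same median (-1.03).

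Cytokines shared the direction of the chemokines, and the interleukin-1 receptor and inflammasome genes compared had a median log2 ratio of -0.26. Of 5 inflammatory cytokine genes, 4 were at least 2-fold higher and the median log2 ratio was 2.23. IL23A, a subunit of interleukin-23, had 395 in Siglec-14,NTHi[+] and 172 in Siglec-5,NTHi[+], or 2.30-fold, and IL18 had 109 and 58.2, or 1.87-fold. None of 8 interleukin-1 receptor and inflammasome genes differed by 2-fold, where 3.44% of all genes were higher and 0.43% lower. Of the 8, 5 were below 1. A further 7 of the 15 with a probe set lay under the threshold. With the threshold lowered to the median of all signals, or with none, the median log2 ratio of this list was 0.20. NLRP3, the sensor of the inflammasome, had 263 and 395, and IL18R1, a receptor chain for interleukin-18, had 266 and 464, 1.74-fold lower. IL27, TNF and IL6 did not enter the comparison, since their higher signals of 8.39, 57.9 and 13.3 lay under the threshold.

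In the TNF family, 3 of 8 ligands and 4 of 10 receptors were at least 2-fold higher and none lower. TNFSF14, the ligand LIGHT, had 256 in Siglec-14,NTHi[+] and 63.5 in Siglec-5,NTHi[+], or 4.02-fold. TNFRSF12A, the receptor of TWEAK, had 119 and 30.1, or 3.97-fold. TNFRSF10B and TNFRSF10D, an active and a decoy receptor of the death ligand TRAIL, had 712 and 337, and 167 and 75.4, with ratios of 2.11 and 2.21, and TNFRSF10B was under 2-fold with the arrays scaled to the same median (log2 ratio 0.97), as was TNFRSF10D with a pseudocount of 16 (0.999). The third ligand, TNFSF13B, the B cell factor BAFF, had 209 and 104, a ratio of 2.00 that fell short of 2-fold under 7 of the other settings tried.

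Genes of the Toll-like receptor and NF-κB pathways held single genes past 2-fold among others near equality. Of 19 Toll-like receptor pathway genes with a probe set, 14 lay under the threshold, and TLR2 was the only receptor compared. This receptor for bacterial lipoproteins had 210 in Siglec-14,NTHi[+] and 215 in Siglec-5,NTHi[+], and its adaptor MYD88 had 670 and 565. Of the 5 genes compared the kinase IRAK2 differed by 2-fold, with 401 and 84.1, or 4.77-fold higher. Of 12 NF-κB subunits and inhibitors NFKBIE alone passed 2-fold, with 644 and 305 (log2 ratio 1.08, or 0.97 with the arrays scaled to the same median), and NFKBIA, the inhibitor IκBα, had 3393 and 1716, a ratio of 1.98. None of the 9 NF-κB brakes and TRAF adaptors compared passed, among them TNFAIP3, the deubiquitinase A20, with 1142 and 985. TYROBP, which encodes the DAP12 adaptor itself, had 376 and 186, a ratio of 2.02 that was under 2-fold under 5 of the other settings tried (log2 ratios of 0.90 to 0.96). The other 4 genes of that list, FCER1G, PTPN11, PTPN6 and SYK, had ratios between 0.874 and 1.24, so the phosphatases that bind Siglec-5 were nearly equal.

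Matrix genes showed the widest range of any list with more than 10 genes. Of 13 compared, 10 were at least 2-fold higher and none lower, with a median log2 ratio of 2.11. MMP1 and MMP9 encode a collagenase and a gelatinase. MMP1 had 186 in Siglec-14,NTHi[+] and 1.76 in Siglec-5,NTHi[+], at least 11.6-fold, and MMP9 had 2304 and 268, or 8.59-fold. The inhibitors of such proteases were higher as well, with TIMP3 at 269 and 43.6 and TIMP1 at 3039 and 1293. PLAUR, the receptor of urokinase, had 1809 and 418, or 4.32-fold. HYAL2, a hyaluronidase, was the single gene of the list below 1, at 125 and 206.

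Adhesion genes were mixed. Of 15 compared, 3 were at least 2-fold higher and 1 lower, with a median log2 ratio of 0.50. PECAM1, which leukocytes use to cross the endothelium, had 2376 in Siglec-14,NTHi[+] and 627 in Siglec-5,NTHi[+], or 3.79-fold, and ITGAM, the integrin CD11b that increases as monocytes mature, had 353 and 167, a log2 ratio of 1.08 that was 0.97 with the arrays scaled to the same median. VCAM1 had 257 and 174, or 1.48-fold. The gene lower by 2-fold was ITGA4.

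Early response and AP-1 genes, which switch on within an hour of many stimuli, were mostly higher. Of 12 genes of the EGR, NR4A and IER families and their like, 7 were at least 2-fold and indeed at least 3-fold higher, all 12 were above 1, and the median log2 ratio was 1.90. EGR1 had 520 in Siglec-14,NTHi[+] and 75.1 in Siglec-5,NTHi[+], or 6.93-fold, EGR3 had 253 and 11.3, at least 15.8-fold, and NR4A2 had 139 and 11.3, at least 8.65-fold. Of 10 AP-1 and ATF genes, 4 were at least 2-fold higher, with ATF3 at 209 and 36.6 (5.71-fold), JUN at 538 and 165 (3.25-fold), MAFF at 147 and 51.1 (2.87-fold) and FOSL2 at 273 and 126 (2.17-fold). BATF3 at 147 and 158 marked the low end. Without NTHi, 7 of the 12 early response genes and 2 of the 10 AP-1 and ATF genes were at least 2-fold higher in Siglec-14/THP-1. EGR1 had 482 and 54.9 and ATF3 had 197 and 38.3 without NTHi, whereas MAFF had 64.5 and 47.8, a log2 ratio of 0.43 against 1.52 with NTHi, and FOSL2 went from 0.42 to 1.12. DUSP1, the phosphatase that switches off p38 and JNK, had 295 and 31.5, or 9.36-fold, and was the single one of 10 MAP kinase phosphatase and Sprouty genes past 2-fold, although 9 of the 10 were above 1.

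Genes of lipid-handling macrophages gave 7 of 11 at least 2-fold higher and all 11 above 1 (10 with the arrays scaled to the same median), with a median log2 ratio of 1.18. That median was 0.99 with the threshold at the 90th percentile. APOC1, 1 of the 7, was under 2-fold with each other scaling and after quantile normalization (log2 ratios of 0.93 to 0.99). AXL, a receptor for the clearance of dying cells, had 221 in Siglec-14,NTHi[+] and 21.99 in Siglec-5,NTHi[+], or 10.1-fold. LPL, lipoprotein lipase, had 141 and 10.2, at least 8.83-fold. APOE had 462 and 193, or 2.39-fold, and LGALS3, galectin-3, had 2771 and 1223, or 2.27-fold. Lysosomal genes leaned the same way by less, 14 of 15 above 1 (13 with the same median), with a median log2 ratio of 0.31. Only CTSL and CTSH, at 148 and 65.6 and at 446 and 202, passed 2-fold.

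Among genes that shape contact with T cells, 4 of 6 costimulatory and checkpoint genes were at least 2-fold higher. A further 7 of the 13 with a probe set lay under the threshold. The median log2 ratio of this list was 1.39. It was 0.58 with the threshold lowered to the median of all signals and 0.78 with none. HAVCR2, the inhibitory receptor TIM-3, had 137 in Siglec-14,NTHi[+] and 1.35 in Siglec-5,NTHi[+], at least 8.55-fold, CD276 had 422 and 140, or 3.02-fold, and CD83, a marker of mature dendritic cells, had 1251 and 551, or 2.27-fold. Of the antigen presentation genes, 0 of 13 class I and 0 of 3 class II genes were past 2-fold. Such counts are near the shares of 3.44% higher and 0.43% lower over all genes. A further 9 of the 12 class II genes with a probe set lay under the threshold. HLA-E, at 1910 and 1060, was the farthest class I gene, and CD74, the invariant chain, lay at a log2 ratio of 0.24. Of the interferon-stimulated genes, 13 of 16 were above 1, or 11 with the arrays scaled to the same median. Of 16, GBP2 (187 and 78.9) and IRF9 (111 and 52.5) were at least 2-fold higher, with a median log2 ratio of 0.28, and IRF9 was under 2-fold under 3 of the other settings (log2 ratios of 0.90 to 0.98).

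Smaller lists held single genes that stood out. PTGS1, cyclooxygenase-1, had 270 in Siglec-14,NTHi[+] and 43.0 in Siglec-5,NTHi[+], or 6.30-fold, and ALOX5AP, which presents arachidonic acid to 5-lipoxygenase, had 2653 and 889, or 2.99-fold. SAT1, the enzyme that breaks down polyamines, had 2938 and 633, or 4.64-fold, while ODC1, the enzyme that begins their synthesis, had 4289 and 6083, 1.42-fold lower. BCL2A1, a survival factor, had 519 and 95.5, or 5.43-fold. C3 and CFP, complement component 3 and properdin of the alternative pathway, had 1823 and 523, and 118 and 48.4, with ratios of 3.49 and 2.44. NCF1, a subunit of the phagocyte oxidase whose near-identical pseudogenes may share its probes, had 1103 and 341, or 3.23-fold. S100A10, the partner of annexin A2, had 1745 and 568, or 3.07-fold, whereas S100A9, a subunit of calprotectin, had 6772 and 6292.

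The lists of myeloid identity and housekeeping genes had medians near that of all genes, with single genes apart from them. None of 13 myeloid transcription factors passed 2-fold, with a median log2 ratio of -0.08, and MYB, a factor of progenitors, had 2708 in Siglec-14,NTHi[+] and 4111 in Siglec-5,NTHi[+], 1.52-fold lower. Of 10 primary granule genes, 8 were below 1 (9 with the arrays scaled to the same median), with CTSG the lowest at a log2 ratio of -1.13. MPO, myeloperoxidase, had 1365 and 2186, 1.602-fold lower. MNDA, a nuclear antigen of myeloid cells, had 782 and 1510, 1.93-fold lower, and was just past 2-fold lower with the arrays scaled to the same median, sum or trimmed mean (log2 ratios of -1.06 and -1.01 with the same median and sum). The 12 ribosomal protein genes lay between log2 ratios of 0.05 and 0.16, all above 0 here and 5 of 12 above 0 with the arrays scaled to the same median. The 20 respiratory chain genes had a median of 0.04 and the 24 cell cycle genes a median of -0.01. GAPDH, the glycolytic enzyme, had 10473 and 10339. The 6 metallothionein genes were all above 1 with a median log2 ratio of 0.52, none at 2-fold, and because they are so alike a probe set may read several of them.

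The arrays without NTHi share no array with this comparison and show how much of it was there without the bacteria. Of the 280 genes at least 2-fold higher in Siglec-14/THP-1 with NTHi, 187, or 66.8%, were also at least 2-fold higher without it, against 218 of all 8133 genes, or 2.68%, and 276 were above 1. Of the 132 at least 3-fold higher, 127, or 96.2%, were 2-fold higher without NTHi. Of the 35 lower genes, 22, or 62.9%, were at least 2-fold lower without NTHi, against 54 of all genes, or 0.664%. All 35 were below 1 without NTHi, as was the median over all genes. The median log2 ratio of the lines over all genes was -0.16 without NTHi and 0.04 with it, so a difference of about 0.20 between the conditions is that of the typical gene. On these unscaled values the sums of all signals also differed, with 1.274e+07 in Siglec-14,NTHi[−] and 1.405e+07 in Siglec-5,NTHi[−]. With NTHi they were 1.398e+07 and 1.343e+07. What lay behind the 0.20 was not tested.

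**Figure D4:**
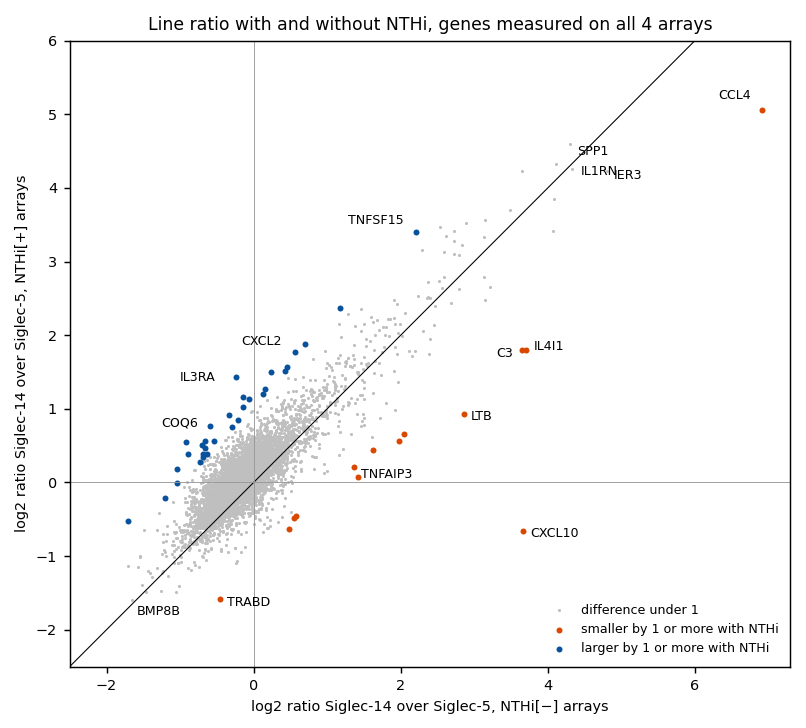
Each point is a gene with all 4 signals at or above the median; the x axis is the log2 ratio of Siglec-14/THP-1 to Siglec-5/THP-1 without NTHi and the y axis the same with NTHi, with equality as the diagonal. Most genes lie along the diagonal, among them SPP1 at 4.31 and 4.60, and orange and blue points differ by 1 or more, CXCL10 the most, at 3.66 without and -0.66 with NTHi.

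Most of the 280 genes were not 2-fold higher with NTHi in either line. In Siglec-14/THP-1, 30 of the 280 had at least a 2-fold higher signal with NTHi, where 54 of all 8133 genes, or 0.664%, did. In Siglec-5/THP-1, 23 of the 280 did so and reached the median, where 52 of all genes, or 0.639%, did. Genes in both counts numbered 18, and 35 were in at least 1 count. Both counts share an array with the comparison of the lines and are given as descriptions. None of the 35 lower genes was 2-fold higher with NTHi in either line.

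For 14 genes with all 4 signals at or above the median the log2 ratio of the lines was smaller by 1 or more with NTHi, and for 31 it was larger, where the median difference was 0.20. The 10 with the largest decreases are led by CXCL10, and for all 10 the lowest of the 4 signals was that of Siglec-5,NTHi[−]. A low signal on that array itself enlarges the decrease by which the 10 were chosen. CXCL10 had 807 in Siglec-14/THP-1 and 63.8 in Siglec-5/THP-1 without NTHi, and with NTHi 2035 and 3220, so the order of the lines turned. LTB, lymphotoxin β, had 971 in Siglec-14,NTHi[−] and 134 in Siglec-5,NTHi[−], and 1894 and 997 with NTHi. IL4I1, an enzyme that breaks down phenylalanine and tryptophan, had 346 and 26.5, then 742 and 212. C3 had 1090 and 86.9, then 1823 and 523. In these 3 genes both lines were higher with NTHi, and the log2 ratio of the lines went from 2.86 to 0.93 for LTB, from 3.71 to 1.80 for IL4I1 and from 3.65 to 1.80 for C3.

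TRAF6, the ubiquitin ligase that links MyD88 to NF-κB, had 122 in Siglec-14,NTHi[−] and 45.5 in Siglec-5,NTHi[−], and 126 and 119 with NTHi. MAML2, a coactivator of Notch, had 234 and 56.6, then 433 and 275. PTPN14, a phosphatase, had 279 and 90.3, then 173 and 127, and was the only one of the 10 whose signal was lower with NTHi in Siglec-14/THP-1. VCAM1 had 110 and 28.2, then 257 and 174, and TNFAIP3 had 392 and 153, then 1142 and 985. CCL4 belongs here too, with a log2 ratio of 6.91 without NTHi and 5.06 with it, so the gene with the largest measured ratio with NTHi had a larger one without.

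The 10 with the largest increases were dim, with no signal above 232. IL3RA, the receptor chain for interleukin-3, had 68.6 in Siglec-14,NTHi[−] and 81.1 in Siglec-5,NTHi[−], and 183 and 67.7 with NTHi, so that its signal in Siglec-14,NTHi[+] stood above the other 3. BTN3A1, a butyrophilin that presents phosphoantigens to γδ T cells, had 117 and 129, then 160 and 71.3. PXN, the focal adhesion protein paxillin, had 122 and 103, then 112 and 39.4, and here it was the signal in Siglec-5,NTHi[+] that stood apart. SLC34A3, a phosphate transporter, had 71.8 and 147, then 232 and 205. DLGAP4, COQ6, SLC35D4, AP3M2, NPRL3 and LOC100289333 had a lower signal with NTHi in Siglec-5/THP-1 and a higher one in Siglec-14/THP-1. Among brighter or better known genes outside the 10, which were chosen after their values were seen, CXCL2 had 26.4 and 17.9, then 131 and 38.6, and IL23A had 114 and 105, then 395 and 172.

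**Figure D5:**
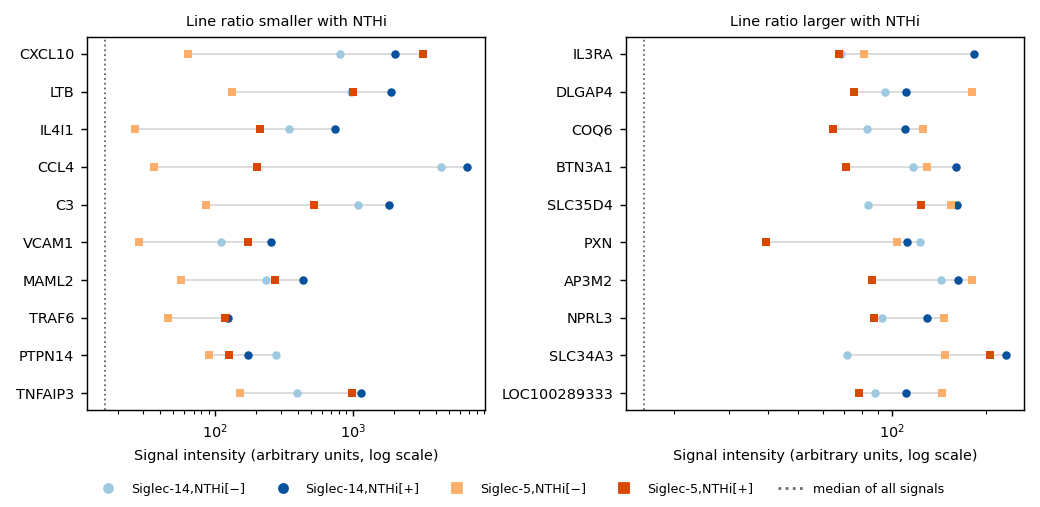
Signals on all 4 arrays, in arbitrary units on a log scale, for the 10 genes whose log2 ratio of the lines was most reduced with NTHi (left) and the 10 for which it was most increased (right); circles are Siglec-14/THP-1, squares Siglec-5/THP-1, dark symbols had NTHi. On the left the pale square (Siglec-5,NTHi[−]) is the lowest of the 4 for every gene, down to 26.5 for IL4I1, and on the right all signals lie between 39.4 and 232. A low pale square itself enlarges the reduction by which the genes on the left were chosen.

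The promoters of the genes most different between the lines were read for the sites of AP-1 and NF-κB and for further motifs. The genes of those factors and of their target families are described above. Promoter sequences are those of RefSeq on the GRCh38.p14 assembly, and the 250 bases before each gene's start were searched on both strands. Of the 132 genes at least 3-fold higher, 101 had a promoter in the table. An AP-1 site, TGACTCA or TGAGTCA, was present in 15 of them, or 14.9%, against 2.48% of 6892 promoters of genes compared and 4.28% of all 27305 promoters. A match to the NF-κB consensus (κB) was present in 21 of them, or 20.8%, against 11.5% and 9.57%. At 2-fold the higher genes, 214 with a promoter, held an AP-1 site in 9.35% and a κB match in 16.4%, and the lower genes, 27 with a promoter, held them in 1 and 3, or 3.7% and 11.1%. Other motifs differed too: a TATA box, TATAAA on the gene's own strand, was present in 10.9% of the promoters of genes at least 3-fold higher and in 3.26% of those of genes compared, against 7.28% of all promoters. The CRE, serum response element (CArG) and GAS motifs were in 5, 2 and 9 promoters of genes at least 3-fold higher, or 4.95%, 1.98% and 8.91%. Their shares were 3.05%, 1.04% and 5.73% among genes compared, and 1.74%, 1.18% and 6.8% among all promoters. An AP-1 site cannot also be a κB match, and a match is a run of letters, not a shown binding site.

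The AP-1 sites are shown for 9 of the 15 genes because they span the range of ratios and the roles described above. Each is given 5′ to 3′ on the gene's own strand with 15 bases to each side, and capitals mark the site.
EMP1, chr12:13196536-13196572, plus strand: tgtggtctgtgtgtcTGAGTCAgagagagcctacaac
CCL24, chr7:75813927-75813963, minus strand: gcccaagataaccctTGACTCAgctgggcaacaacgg
IL1RN, chr2:113117733-113117769, plus strand: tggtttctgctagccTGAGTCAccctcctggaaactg
TNFSF15, chr9:114792629-114792665, minus strand: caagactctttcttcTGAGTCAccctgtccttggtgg
BCL6, chr3:187736557-187736593, minus strand: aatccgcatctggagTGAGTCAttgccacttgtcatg
EBI3, chr19:4229390-4229426, plus strand: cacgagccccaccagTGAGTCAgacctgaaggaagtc
TNFRSF9, chr1:7940862-7940898, minus strand: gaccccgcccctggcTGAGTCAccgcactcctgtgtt
PLAUR, chr19:43670334-43670370, minus strand: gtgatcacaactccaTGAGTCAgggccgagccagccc
CXCL8, chr4:73740417-73740453, plus strand: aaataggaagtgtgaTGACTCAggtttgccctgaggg

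Within the 250 bases searched, the 9 sites lie from 44 bases before the start in TNFRSF9 to 223 in IL1RN. The ratios of these genes ran from at least 22.1 for EMP1 and 19.1 for IL1RN to 3.45 for CXCL8, which encodes interleukin-8. The other genes with a site included UPP1, IL10RA, LAT, TNFSF14 and SLC43A2, with ratios between 3.23 and 6.60.

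The κB matches are shown because genes that hold one differed widely in their ratio. Of 70 genes in 8 lists of chemokines, cytokines, TNF family members, NF-κB proteins and adhesion molecules, 53 had a promoter in the table, and 22 of these held a match. The windows below, chosen after their values were seen to run from the highest to the lowest ratio of the 22, are given in the same way, with capitals for the match.
CCL22, chr16:57358582-57358622, plus strand: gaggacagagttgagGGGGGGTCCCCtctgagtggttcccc
EBI3, chr19:4229294-4229333, plus strand: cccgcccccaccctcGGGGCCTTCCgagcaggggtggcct
CCL20, chr2:227813748-227813787, plus strand: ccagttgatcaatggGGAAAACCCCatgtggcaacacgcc
TNFRSF9, chr1:7940888-7940928, minus strand: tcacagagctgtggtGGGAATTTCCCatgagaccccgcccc
CXCL2, chr4:74099248-74099288, minus strand: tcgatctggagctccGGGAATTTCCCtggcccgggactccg
CXCL1, chr4:73869299-73869339, plus strand: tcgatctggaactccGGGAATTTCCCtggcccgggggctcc
CXCL6, chr4:73836573-73836613, plus strand: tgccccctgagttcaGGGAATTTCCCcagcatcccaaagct
NFKBIA, chr14:35404806-35404845, minus strand: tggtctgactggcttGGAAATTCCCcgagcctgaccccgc
TNFAIP3, chr6:137867177-137867216, plus strand: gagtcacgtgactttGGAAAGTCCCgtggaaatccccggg
NFKBIZ, chr3:101827752-101827791, plus strand: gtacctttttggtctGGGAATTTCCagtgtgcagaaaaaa
CXCL10, chr4:76023595-76023634, minus strand: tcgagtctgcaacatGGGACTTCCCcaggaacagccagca

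In this order the ratio of Siglec-14,NTHi[+] to Siglec-5,NTHi[+] was at least 26.3 for CCL22, 6.02 for EBI3, 5.55 for CCL20, 5.25 for TNFRSF9, 3.40 for CXCL2, 3.13 for CXCL1, 2.49 for CXCL6, 1.98 for NFKBIA, 1.16 for TNFAIP3, 0.840 for NFKBIZ and 0.632 for CXCL10. The windows of CXCL1, CXCL2 and CXCL6, genes of neutrophil chemokines, share their match with that of TNFRSF9 on another chromosome. CXCL10 holds a second match that is not shown, and the second match of TNFAIP3 lies in its window in lower case, unmarked. CXCL10 and NFKBIZ, a nuclear member of the IκB family, had ratios below 1. TNFRSF9 and EBI3 hold both kinds of site, as does TNFSF14.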

How the data were processed

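RNA of 4 cell samples was measured on 1 array each. Per their methods, the authors obtained signals from GeneChip Operating Software and standardized them on the summed intensity of all probes. The deposited values are signal intensity on a linear scale for 54675 probe sets, and since their sums differ, it is unknown whether they carry that standardization. They were used as deposited. Of the probe sets, 62 are controls, 41097 are annotated to 1 gene, 1801 to several and 11777 to none by the platform annotation, and only non-control probe sets of 1 gene were used (41091).

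Ratios were computed without tests, with Python 3.11.15, numpy 2.4.6, pandas 2.3.3 and matplotlib 3.10.9. The code of the ratio calls was tested on simulated data, which checks the computation and not the error of single arrays. The text names the 15 largest and 15 smallest measured ratios, the 5 largest bounds and the 10 largest changes of the line ratio in each direction. It also names some, not all, of the list genes past 2-fold, list extremes, and marker and label genes. A few further list genes were chosen after their values were seen. The comparison, the gene lists and the naming rule were chosen with earlier results of these data known. The promoter search was added after seeing the data. Alternatives were other scalings, quantile normalization, a pseudocount of 16, other thresholds, and other choices among probe sets. Some genes, those on the Y chromosome among them, are not reported by name here. The Y-linked genes are in the counts of genes and ratios, and left out of the promoter search and of the count of genes with opposite directions.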

Additional observations from a re-analysis of the deposited data

Results flagged for a closer look

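Leaving out Y-linked genes, 8095 genes had all 4 signals at or above the median. For 2 of them, the ratio of the lines was at least 1.5-fold in opposite directions with and without NTHi. CXCL10 had a log2 ratio of Siglec-14/THP-1 to Siglec-5/THP-1 of 3.66 without NTHi and -0.66 with it. COQ6, an enzyme of coenzyme Q synthesis, had -0.59 without NTHi and 0.76 with it, at signals of 83.2 and 126 and then 110 and 64.6. Each rests on 1 array per condition, and the difference was not tested. Opposite signs of any size were seen for 2699 of the 8095 genes on the unscaled values. The median log2 ratio over all genes compared was itself -0.16 without NTHi and 0.04 with it.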

How the results depend on the processing

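The counts of genes depended on the floor more than on the scaling. The main counts were 280 higher and 35 lower at 2-fold, and 132 and 1 at 3-fold. With the floor at the median of all signals they were 1000 and 442, and 532 and 221. With it at the 90th percentile they were 84 and 8, and 47 and 0. With no floor they were 2614 and 2025, and 1618 and 1272. Thresholds of 1.5-fold and 4-fold gave 650 and 243, and 89 and 0. The genes lower by 2-fold numbered 59 with the arrays scaled to the same median and 21 with a pseudocount of 16, and those lower by 3-fold 4 with the same median, 2 with the same sum, 2 with the same trimmed mean, 3 after quantile normalization and 0 with the pseudocount. Of 173 named log2 ratios, 157 kept their side of 2-fold under all the alternatives that gave a value, and of 42 list medians 37 did so. No named gene or list median past 2-fold changed direction. With 1 array per condition no replicate could be left out. No paired analysis was possible because each condition has 1 array.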

Other observations

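Genes of other kinds were also at least 4-fold higher in Siglec-14/THP-1 with NTHi, named here after their values were seen. FPR1, the receptor of bacterial formyl peptides, had 205 in Siglec-14,NTHi[+] and 24.2 in Siglec-5,NTHi[+], and GPR183, an oxysterol receptor that guides leukocytes, had 313 and 45.1. ADGRE2, an adhesion receptor of myeloid cells, had 514 and 52.8. ID2, an inhibitor of helix-loop-helix factors, had 1522 and 269, and CDKN1C, a cell cycle inhibitor, had 1038 and 117. INHBA, the subunit of activin A, had 193 and 1.22, at least 12.03-fold higher, and SERPINA1, α1-antitrypsin, had 177 and 3.99, at least 11.05-fold higher.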
